A study of Mus musculus with 3 samples.

Results

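RNA-binding proteins with restricted expression were followed across the germ layers of the E7.5 mouse embryo as a list of 41 genes in 15 families, picked by gene symbol from 17633 genes with a read in at least 1 library. All 41 genes were found, *Ptbp3* under its older symbol *Rod1*, and all 41 had reads in all 3 libraries. In 14 families there were 2 or more paralogs, which are genes of common descent within a genome, and *Bicc1* was listed alone. The libraries were 1 of endoderm (End), 1 of mesoderm (Mes) and 1 of epiblast (Epi) of ICR embryos, for which the labels name no allele and no treatment. The epiblast dissected here comprised neuroectoderm and primitive streak. Layers were separated by hand after digestion with trypsin and pancreatin, and RNA was pooled over many embryos, so differences between single embryos were not measured. With 1 library per layer there is no replicate check within these data on any difference below. The authors reported separate qPCR in which the markers of each layer were high in that layer.

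Regulators of this kind bind short sequence motifs in pre-mRNA or mRNA. Bound in or beside an alternative exon, proteins such as RBFOX, ESRP, NOVA, PTBP, CELF and MBNL promote or repress its inclusion, often in opposite directions according to the side of the exon on which they sit. Others, such as LIN28, IGF2BP, MSI, ELAVL1 and BICC1, act mainly on the stability, translation or processing of their target RNAs. Paralogs within a family often bind nearly the same motif but are expressed in different tissues, which is why the level of each paralog beside that of its relatives is of interest.

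Reads counted on genes amounted to 41.7 M in End, 40.8 M in Mes and 42.7 M in Epi, and the 41 genes took 0.572%, 0.649% and 0.634% of them. Levels are given as RPKM, in which the reads of a gene are divided by gene length and library size, which allows genes to be compared per length. Of 6 germ layer markers, 5 met the expression criteria of the study in at least 1 pair of layers. The exception was *Pax6*, an eye and neural tube factor, at RPKM 0.693 in Epi and lower in the others. *Sox17* reached RPKM 39.5 in End against 1.001 in Mes and 0.322 in Epi. All 6 visceral endoderm markers (*Afp*, *Ttr*, *Apoa1*, *Amn*, *Cubn* and *Rbp4*) met the criteria in End, where their RPKM summed to 5312, against 4.33 in Mes and 3.61 in Epi, so the endoderm library held transcripts typical of this extra-embryonic cell type and their part in the results was not tested. The 7 trophoblast markers had 4036, 3263 and 5877 reads in End, Mes and Epi, with *Tpbpa* and *Prl3d1* not listed and so taken as 0. Of the 7, 3 met the criteria in some pair, *Eomes* and *Cdx2* highest in Epi and *Plac1* highest in End at RPKM 19.9, 6.25 and 0.569. In Epi, *Eomes* had 2310 reads and *Cdx2* 3398, against 31 for *Elf5*, 112 for *Ascl2* and 26 for *Plac1*. Which cells these reads came from was not tested. The 6 primitive erythroid markers had 275, 370 and 110 reads, with *Hba-x* and *Hbb-y* taken as 0 likewise and no gene called. The 6 decidua markers had 143, 2689 and 472 reads with *Prl8a2* taken as 0, and 2392 of the mesoderm reads belonged to *Hand2*, the 1 gene called, which is also a gene of embryonic mesoderm.

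The question asked of each gene was whether its level differed between layers, by the criteria of the study: RPKM>5 in at least 1 of the 2 libraries, fold change>2 and FDR<0.001. The FDR was taken from the exact two-sided test of Audic and Claverie on read counts, with Benjamini-Hochberg adjustment over all genes with a read in either library. This test compares 2 libraries, not the layers as conditions, and counts as error only the sampling of reads. Intervals given with folds are 95% exact intervals that also cover counting error only. RPKM>5 was reached in some library by 27 of the 41 genes. Of the other 14, which could not meet the criteria, 11 still differed by more than 2-fold between their highest and lowest library with counts under 3 set to 3 reads, and 5 did not exceed RPKM 1 anywhere. Exon sequence is shared with another annotated coding gene in 8 of the 41 genes (*Esrp2*, *Celf3*, *Elavl1*, *Elavl3*, *Ptbp1*, *Raver1*, *Raver2* and *Igf2bp3*), so their counts are uncertain to that extent.

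In at least 1 pair of layers 15 of the 41 genes met the criteria, or 36.6%, where 16.3% of all genes did. They were *Esrp1*, *Esrp2*, *Rbfox2*, *Celf4*, *Mbnl2*, *Elavl3*, *Khdrbs3*, *Ptbp2*, *Rod1*, *Raver2*, *Msi1*, *Rbms1*, *Rbpms2*, *Bicc1* and *Lin28b*. The 3 pairs share libraries and are not independent of each other. The 41 genes were chosen with earlier results of these data known. The background was all genes with a read, not genes of matched level. The part of either in a difference from the background was not tested. *Esrp1*, *Esrp2* and *Bicc1* were higher in End than in Mes, 3 genes against a background of 7.44% of all genes. *Rbfox2*, *Khdrbs3*, *Ptbp2*, *Rbms1* and *Lin28b* were higher in Mes than in End, 5 genes or 12.2% where the background was 4.41%. *Esrp2*, *Mbnl2*, *Rod1* and *Bicc1* were higher in End than in Epi, 4 genes against 8.02%. In the opposite direction *Celf4*, *Elavl3*, *Khdrbs3*, *Ptbp2*, *Raver2*, *Msi1* and *Lin28b* were higher in Epi than in End, 7 genes or 17.1% where the background was 4.58%. Between Mes and Epi, only *Rbms1* was higher in Mes (background 2.58%), and *Esrp1*, *Elavl3* and *Rbpms2* were higher in Epi (background 2.45%). Thus the shares of genes higher in End were near the background, and those of genes lower in End were above it. When variation between replicates was assumed instead, as a coefficient of 0.2 in the exact test of edgeR, 9 of the 41 were called where 9.75% of all genes were. At 0.4 these were the 3 genes *Esrp1*, *Esrp2* and *Elavl3* where 2.95% were.

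**Figure D1:**
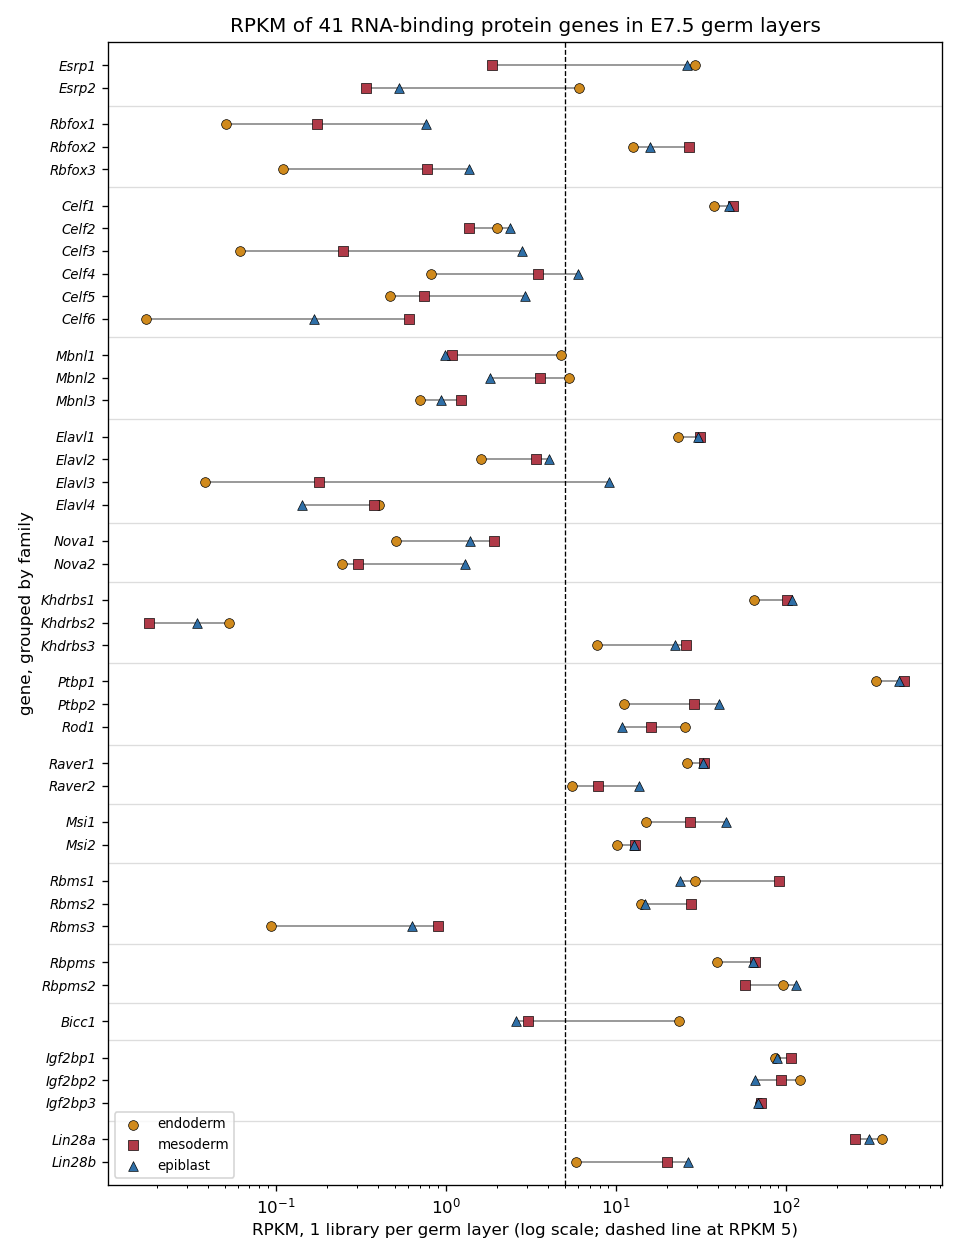
RPKM of the 41 genes on a log scale, grouped by family, with 1 marker for each germ layer library and a dashed line at RPKM 5. The widest gaps between libraries belong to *Elavl3*, *Celf3*, *Celf6*, *Esrp1* and *Esrp2*, whereas the markers of *Igf2bp3* nearly coincide.

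The endoderm library was the lowest of the 3 for 27 of the 41 genes, against 6 for Mes and 8 for Epi. The median log2 ratio of the 41 genes was -0.55 for End over Mes and -0.40 for End over Epi, where the median of all genes was -0.09 in both. For Mes over Epi it was 0.02 against 0.01. A list of 24 other tissue-restricted RNA-binding proteins, described below, had medians of -0.49, -0.48 and 0.03 for these ratios in the same order. Among genes with a mean RPKM above 1, the endoderm was lowest for 21 of 33 members and for 47.5% of all 11454 genes. The gap between the highest and lowest library had a median of 2.83-fold over the 41 genes, where all genes had 1.79-fold, and of 2.48-fold against 1.62-fold above a mean RPKM of 1. In bulk RNA, fewer cells of an expressing type and less RNA per cell cannot be told apart.

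*Elavl3* differed most. ELAV proteins bind U- and AU-rich elements, and *Elavl3* (HuC) is, with *Elavl2* and *Elavl4*, one of the neuronal members of the family, whereas *Elavl1* (HuR) is ubiquitous. *Elavl3* (chr9:22015005-22052023 in GRCm38, minus strand) had 8 reads in End, 37 in Mes and 1955 in Epi, which is RPKM 0.0382, 0.180 and 9.11. Reads covered 14.3%, 41.9% and 98.7% of the gene in that order. In Epi it was thus 238-fold above End (interval 121 to 553) and 50.5-fold above Mes (36.5 to 72.0). A pseudocount shrinks this ratio, and *Elavl3* had a log2 ratio of End over Epi of -7.90 as deposited, -6.06 on the log2(RPKM + 0.1) scale and -3.28 on the log2(RPKM + 1) scale. The annotated gene *Gm49318* shares exon sequence with it on the same strand. *Elavl2* was at RPKM 1.61 in End, 3.40 in Mes and 4.03 in Epi, 2.50-fold higher in Epi than in End (2.17 to 2.88) but under RPKM 5. *Elavl4* stayed at or below 69 reads, with 69 in End, 63 in Mes and 25 in Epi, and was lowest in Epi, with End and Mes within counting error (1.07-fold, 0.752 to 1.54). *Elavl1* was at RPKM 23.0, 31.2 and 30.3 in End, Mes and Epi and met the criteria in no pair. Its share of the summed RPKM of the family went from 91.8% in End and 88.7% in Mes to 69.5% in Epi.

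The promoters of *Elavl3* and *Elavl1* are shown because the pair had the widest and the narrowest differences of the family. Each sequence runs from 250 bases before to 50 bases after the annotated start and was taken from RefSeq on GRCm38.p6, on the minus strand of chr9:22051974-22052273 for *Elavl3* and of chr8:4325051-4325350 for *Elavl1*. Capitals mark matches on either strand to CCAAT (the CCAAT box), TATAAA (the TATA box) and CACCTG (an E-box of the kind bound by SNAI and ZEB factors), and none of the marked matches overlap.
Elavl3 promoter: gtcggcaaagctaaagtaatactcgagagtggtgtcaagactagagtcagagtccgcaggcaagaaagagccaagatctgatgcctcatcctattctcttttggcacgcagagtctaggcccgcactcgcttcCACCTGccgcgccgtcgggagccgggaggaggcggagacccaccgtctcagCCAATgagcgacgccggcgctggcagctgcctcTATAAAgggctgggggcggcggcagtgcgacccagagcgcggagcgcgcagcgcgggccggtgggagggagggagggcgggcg
Elavl1 promoter: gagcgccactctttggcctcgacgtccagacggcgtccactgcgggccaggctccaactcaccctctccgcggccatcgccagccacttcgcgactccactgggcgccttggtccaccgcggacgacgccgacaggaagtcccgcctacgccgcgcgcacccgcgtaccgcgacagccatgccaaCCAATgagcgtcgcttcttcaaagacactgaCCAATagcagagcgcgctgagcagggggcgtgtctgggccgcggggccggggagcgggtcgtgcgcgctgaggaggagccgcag
The *Elavl3* promoter held 1 match to each motif, with TATAAA from 33 to 28 bases before the start (positions -33 to -28). The *Elavl1* promoter held CCAAT at -65 to -61 and at -34 to -30 and neither other motif. GC content was 65.3% in *Elavl3* and 70% in *Elavl1*, where the median over all 32851 promoters in the table was 52.7%. Promoters were found for 30 of the 41 genes, 60 sequences in all. CCAAT occurred in 30 of these 60 and in 37.4% of all promoters, TATAAA in 6 and in 13.6%, and CACCTG in 11 and in 20.2%. Some of the 60 windows overlap, as in *Elavl2*, *Msi2* and *Celf3*, so that the same CCAAT site was counted more than once. The counts therefore cannot be read as shares of genes. These matches describe letters in a window and no binding was measured. The genes without a promoter entry were *Esrp1*, *Esrp2*, *Rbfox2*, *Celf4*, *Khdrbs1*, *Khdrbs3*, *Rod1*, *Msi1*, *Rbpms*, *Bicc1* and *Igf2bp1*.

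CELF proteins bind GU-rich sequences and regulate splicing and mRNA decay. *Celf1* and *Celf2* are broadly expressed and *Celf3* to *Celf6* are chiefly neural in the adult. *Celf1* led the family everywhere, at RPKM 37.5 in End, 48.7 in Mes and 46.1 in Epi. *Celf3* had 7 reads in End, 28 in Mes and 328 in Epi. It was 45.7-fold higher in Epi than in End (21.9 to 115) and 11.2-fold higher than in Mes (7.61 to 17.1), at RPKM 2.80 in Epi. *Celf5* had 86, 134 and 548 reads and was 6.22-fold higher in Epi than in End (4.94 to 7.90). *Celf4* had 137, 567 and 1025 reads, and its 7.30-fold excess in Epi over End (6.10 to 8.79) was the only difference of the family that met the criteria. *Celf3*, *Celf4* and *Celf5* therefore shared the order End, Mes, Epi from low to high, and *Celf1* made up 91.8% of the family in End and 76.4% in Epi. *Celf6* had 2 reads in End, 69 in Mes and 20 in Epi, and so was highest in Mes, with a ratio to End of 35.2 (9.38 to 296). *Celf2*, at RPKM 2.003, 1.37 and 2.37, spanned 1.72-fold between Epi and Mes.

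NOVA proteins bind YCAY clusters and control neuronal exons, and the 2 paralogs had different highest layers. *Nova1* had 149 reads in End, 547 in Mes and 413 in Epi, 3.74-fold higher in Mes than in End (3.12 to 4.52). *Nova2* had 86, 104 and 461 reads, 5.23-fold higher in Epi than in End (4.15 to 6.66) and 4.24-fold higher than in Mes (3.42 to 5.30). Neither exceeded RPKM 2, and *Nova1* made up 86.3% of the family in Mes and 51.7% in Epi.

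RBFOX proteins bind UGCAUG beside alternative exons in muscle, neurons and some epithelia. *Rbfox2*, the broadly expressed paralog, was at RPKM 12.6 in End, 27.0 in Mes and 15.9 in Epi. Its 2.15-fold excess in Mes over End (2.07 to 2.23) was close to the 2-fold limit and was not called after TMM or median-of-ratios scaling or at an assumed coefficient of variation of 0.2. *Rbfox1*, a muscle and neuronal paralog, had 11 reads in End, 37 in Mes and 170 in Epi, 15.1-fold higher in Epi than in End (8.21 to 30.8). *Rbfox3*, known as the neuronal antigen NeuN, had 21, 143 and 265 reads, 12.3-fold higher in Epi than in End (7.89 to 20.2). The minor paralogs were thus highest in Epi and *Rbfox2* in Mes, and the share of *Rbfox2* fell from 98.7% of the family in End and 96.6% in Mes to 88.2% in Epi.

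A set of 8 neuronal markers had a summed RPKM of 12.2 in End, 22.6 in Mes and 69.9 in Epi, most of it from *Tubb3* and *Stmn2*, and its part in the results on genes highest in Epi was not tested. *Tubb3*, a tubulin of young neurons, was at RPKM 2.42, 12.4 and 36.5, and *Stmn2* at 8.66, 7.06 and 26.9. These were the 2 of 8 that met the criteria, both higher in Epi than in End and than in Mes, and *Tubb3* also in Mes over End. *Neurod1*, a factor of differentiating neurons, was at 0 reads in End and Mes and at 8 in Epi, and *Neurog2* had 2, 12 and 25 reads. Of 8 striated muscle markers, *Actc1* and *Tnnt2* met the criteria, both higher in Mes, with *Tnnt2* at 8 reads in End, 366 in Mes and 4 in Epi. Others of the list had their most reads elsewhere, with *Myh7* at 632, 34 and 45, *Myh6* at 129, 90 and 400 and *Myod1* at 2, 10 and 31. *Des* at 28, 437 and 250 and *Ryr2* at 108, 214 and 122 had their most reads in Mes. *Myog* had only 2, 3 and 2.

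ESRP proteins bind GU-rich motifs and hold epithelial splicing patterns. *Esrp1* was at RPKM 29.1 in End, 1.86 in Mes and 26.3 in Epi, and *Esrp2* at 6.06, 0.337 and 0.532. Mesoderm was low for both, but epiblast was high only for *Esrp1*. End over Mes was 15.7-fold for *Esrp1* (13.9 to 17.7) and 17.97-fold for *Esrp2* (12.9 to 25.7). End over Epi was 1.11-fold for *Esrp1* (1.06 to 1.15) and 11.4-fold for *Esrp2* (8.76 to 15.1). *Esrp1* thus supplied 82.7% of the family RPKM in End, 84.6% in Mes and 98.0% in Epi, and the family sum spanned 16.0-fold, the widest of the 14 families. *Esrp2* shares exon sequence with *Nfatc3*, and the strand setting of the counting is not given in the sources used here.

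Of 12 epithelial and mesenchymal reference genes 11 met the criteria in some pair. The adhesion molecule *Cdh1* was at RPKM 181.2 in End, 5.44 in Mes and 155.6 in Epi, and *Epcam* at 111.6, 7.22 and 94.7, which is the order of *Esrp1*. *Grhl2*, an epithelial transcription factor, was at 5.96, 0.935 and 7.54. Repressors of epithelial genes were highest in Mes: *Zeb1* at RPKM 0.165, 6.27 and 0.549, *Zeb2* at 0.738, 10.004 and 5.13, and *Snai1* at 5.27, 67.3 and 24.9. Between End and Mes 4 of the 12 were higher in End and 7 in Mes, and between Mes and Epi 6 were higher in Mes and 4 in Epi. Their part in the ESRP values was not tested.

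*Bicc1* encodes a KH-domain protein that represses translation of target mRNAs and is needed for left-right patterning and kidney tubules. It had 3041 reads in End, 388 in Mes and 342 in Epi, at RPKM 23.5, 3.05 and 2.57. Endoderm was 7.69-fold above Mes (6.91 to 8.56) and 9.12-fold above Epi (8.15 to 10.2), whereas Mes and Epi differed by 1.19-fold (1.02 to 1.38). Like *Esrp2*, *Bicc1* was high in End alone. The visceral endoderm markers given above were also high in End alone, and their part in this was not tested.

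MBNL proteins bind YGCY motifs and drive the change from fetal to adult splicing. *Mbnl1* had 1098 reads in End, 247 in Mes and 235 in Epi, 4.36-fold higher in End than in Mes (3.79 to 5.03) and 4.79-fold higher than in Epi (4.16 to 5.54). At RPKM 4.72 in End it lay just under the minimum of 5 and was not called. *Mbnl2* lay just above, at RPKM 5.28 in End, 3.58 in Mes and 1.81 in Epi, and its 2.93-fold excess in End over Epi (2.59 to 3.31) met the criteria. *Mbnl3*, a paralog of proliferating cells on the X chromosome, was at 0.703, 1.23 and 0.932 and was lowest in End, the opposite of the others. *Mbnl2* led in all 3 layers, with 49.3%, 60.8% and 48.5% of the family, and second place passed from *Mbnl1* in End and Epi to *Mbnl3* in Mes. The tables give *Mbnl3* 8671 bases and GENCODE 4649, and with GENCODE lengths *Mbnl3* was second in Epi too, at 38.1% against 22.1% for *Mbnl1*.

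**Figure D2:**
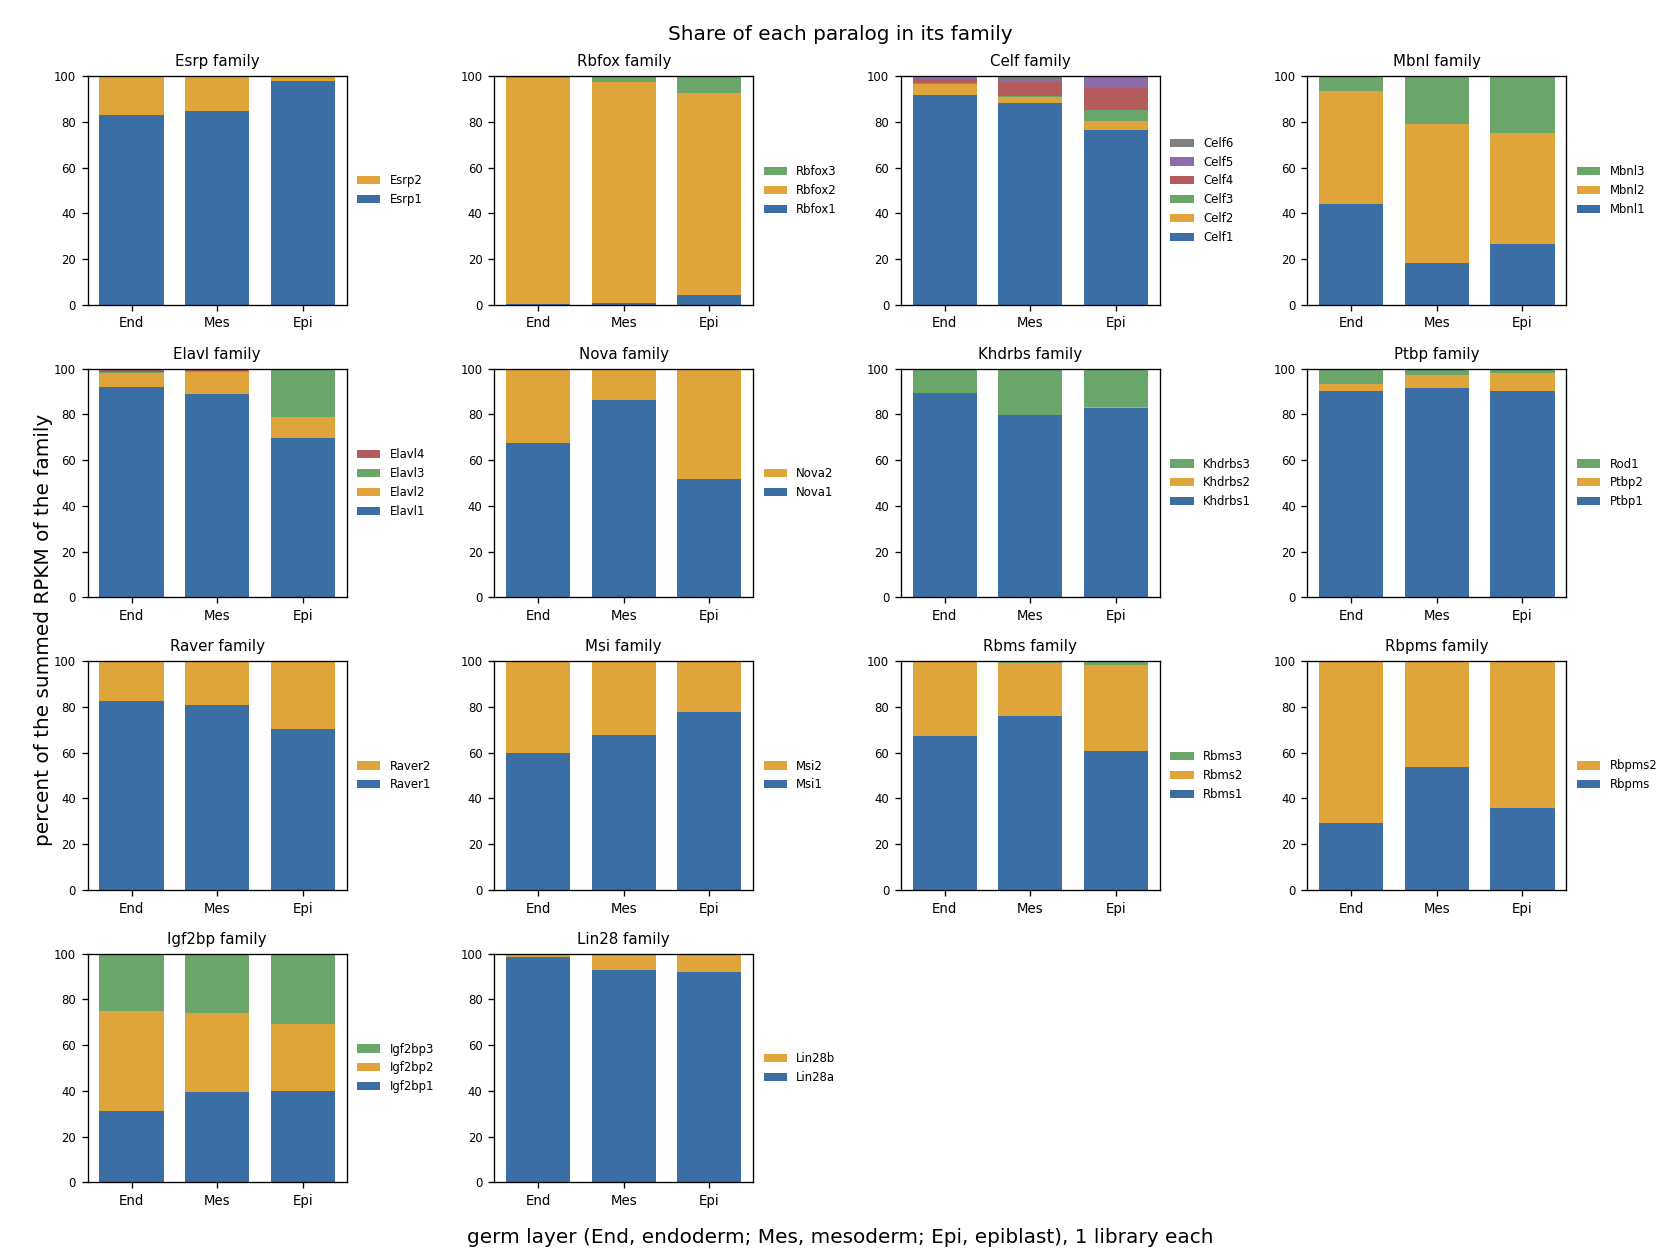
Share of each paralog in the summed RPKM of its family, in percent, for the 14 families with 2 or more paralogs in End, Mes and Epi (1 library each). The leading paralog fills most of the bar in the Rbfox, Ptbp and Lin28 families in all 3 layers, while *Elavl3* appears as a visible share only in Epi and the lead passes between *Rbpms* and *Rbpms2* in Mes.

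PTBP proteins bind pyrimidine-rich tracts and repress exons. *Ptbp1* keeps neuronal exons silent in most cells, *Ptbp2* takes its place in developing neurons and *Ptbp3* (here *Rod1*) is found in blood-forming and other cells. The level of *Ptbp1* was RPKM 337.1 in End, 493.1 in Mes and 462.2 in Epi, the highest of the 41 genes in Mes and Epi. It made up 90.2%, 91.7% and 90.1% of the family, a nearly constant share. Below it, *Ptbp2* rose against End to 2.58-fold in Mes (2.43 to 2.74) and 3.58-fold in Epi (3.38 to 3.78). *Rod1* went the other way, at RPKM 25.6 in End, 16.0 in Mes and 10.9 in Epi, 2.35-fold higher in End than in Epi (2.25 to 2.45). The second paralog was therefore *Rod1* in End and *Ptbp2* in Mes and Epi.

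RAVER proteins are partners of PTBP1 in exon repression. *Raver1* was at RPKM 26.3, 33.0 and 32.5 in End, Mes and Epi, with reads over only 43.9%, 42.1% and 46.3% of its length, and *Gm38431* shares its exon sequence on the same strand. *Raver2* was at 5.49, 7.86 and 13.6, and its 2.48-fold excess in Epi over End (2.30 to 2.68) met the criteria. As for *Ptbp2*, the order of *Raver2* was End, Mes, Epi from low to high.

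The KHDRBS family holds *Khdrbs1* (SAM68), a ubiquitous signal-responsive splicing regulator, and the tissue-restricted *Khdrbs2* and *Khdrbs3* (SLM1 and SLM2). *Khdrbs1* was at RPKM 64.5 in End, 101.1 in Mes and 108.6 in Epi and stayed below 2-fold. *Khdrbs3* had 630, 2070 and 1859 reads in the same order and was 3.35-fold higher in Mes (3.06 to 3.67) and 2.88-fold higher in Epi (2.63 to 3.16) than in End. Its share of the family was thus smallest in End, where *Khdrbs1* made up 89.2%, against 79.6% in Mes and 83.0% in Epi. *Khdrbs2* had 3 reads in End, 1 in Mes and 2 in Epi, too few for any fold.

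MSI proteins bind UAG-containing sites, repress translation and mark neural and other stem cells. *Msi1* was at RPKM 14.97 in End, 27.1 in Mes and 44.3 in Epi, 2.96-fold higher in Epi than in End (2.75 to 3.18). *Msi2* was at 10.1, 13.0 and 12.8 and met the criteria in no pair. The share of *Msi1* in the family RPKM was 59.7%, 67.7% and 77.6%. Which paralog led depends on the gene model, since the tables scale *Msi1* to 1551 bases and the GENCODE transcript has 3133. With GENCODE lengths the share of *Msi1* was 42.1% in End, 50.6% in Mes and 62.9% in Epi, so that *Msi2* led in End. By reads alone *Msi2* led in all 3 layers, with 73.9%, 66.7% and 54.8%. On each of these scales the share of *Msi1* was smallest in End and largest in Epi.

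RBMS proteins bind AU-rich single strands and act on mRNA stability. *Rbms1* was at RPKM 29.1 in End, 91.0 in Mes and 23.9 in Epi, 3.12-fold higher in Mes than in End (3 to 3.25) and 3.81-fold higher than in Epi (3.65 to 3.97). *Rbms2* stood at 14.1, 27.6 and 14.8, 1.96-fold higher in Mes than in End (1.88 to 2.04), which met the criteria only after upper-quartile scaling. *Rbms3* had 31, 293 and 215 reads and was 9.64-fold higher in Mes than in End (6.64 to 14.4), with 1.42-fold between Mes and Epi (1.19 to 1.71). All 3 paralogs had their highest level in Mes. *Rbms1* made up 67.3%, 76.1% and 60.8% of the family RPKM, with lengths in the tables of 2688 bases for *Rbms1* and 5390 for *Rbms2*. With the GENCODE lengths of 4436 and 3302 bases *Rbms2* led in End with 56.4% and in Epi with 61.5%, and *Rbms1* in Mes with 54.5%.

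RBPMS proteins bind CAC-containing sites and are known from smooth and heart muscle. *Rbpms* was at RPKM 39.4 in End, 65.4 in Mes and 63.6 in Epi. *Rbpms2* was lowest in Mes, at 95.7, 56.9 and 114.8, and its 2.02-fold excess in Epi over Mes (1.95 to 2.09) lay just past the limit. *Rbpms2* therefore led in End with 70.8% and in Epi with 64.4%, and *Rbpms* led in Mes with 53.5%.

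LIN28 proteins block maturation of the let-7 miRNAs, and let-7 in turn represses *Lin28* and *Igf2bp* mRNAs through sites in their 3′ untranslated regions. *Lin28a* was at RPKM 363.8 in End, 255.3 in Mes and 307.3 in Epi, the highest of the 41 genes in End, and met the criteria in no pair. *Lin28b* had 1311 reads in End, 4401 in Mes and 6163 in Epi, 3.42-fold higher in Mes (3.22 to 3.64) and 4.59-fold higher in Epi (4.32 to 4.87) than in End. The paralogs thus had opposite highest layers, and *Lin28a* made up 98.4%, 92.8% and 92.0% of the family. IGF2BP proteins shield bound mRNAs from decay. *Igf2bp1* was at RPKM 85.8, 107.3 and 88.6, *Igf2bp2* at 120.6, 93.1 and 65.3, and *Igf2bp3* at 69.8, 71.1 and 67.9. *Igf2bp3* was the most even of the 41 genes, with 1.05-fold between its highest and lowest library, and *Igf2bp2* had a 1.85-fold excess in End over Epi (1.80 to 1.89). *Igf2bp2* led in End with 43.7% and *Igf2bp1* led in Mes and Epi with 39.5% and 39.9%.

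The let-7 seed and its matches are shown because *Lin28b* and *Igf2bp1* carry more of them than nearly all genes. The table of RefSeq miRNAs on GRCm38.p6 held 8 let-7 5p arms, all with the same seed (bases 2 to 8, in capitals), here that of chr13:48538239-48538260 on the minus strand. The sites are DNA letters of the longest annotated 3′ untranslated region (GENCODE M21, GRCm38), with capitals for the 7 bases CTACCTC that pair with the seed. The seed-matching bases lie at chr10:45381023-45381029 for *Lin28b*, chr11:95961779-95961785 for *Igf2bp1*, chr4:134005190-134005196 for *Lin28a*, chr16:22059474-22059480 for *Igf2bp2* and chr6:49086788-49086794 for *Igf2bp3*, all on the minus strand.
mmu-let-7a-5p: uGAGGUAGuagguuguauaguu
Lin28b site 1: ggcgggaagtCTACCTCatgcaagc
Igf2bp1 site 1: gcgaagtaaaCTACCTCaaggtgtg
Lin28a site 1: gcctgttgaaCTACCTCatttttgc
Igf2bp2 site 1: caaataaaagCTACCTCaggtgttt
Igf2bp3 site 1: ttttactcaaCTACCTCaggtattc
The region of *Lin28b* (4445 bases) held 4 matches, that of *Igf2bp1* (6337 bases) 4, that of *Lin28a* 2, and those of *Igf2bp2* and *Igf2bp3* 1 each. *Mbnl3*, *Nova1*, *Raver2* and *Rbms1* held 1 each as well, which makes 9 of the 41 genes. At least 1 match was held by 10.1% of 21124 coding genes, whose median region was 1085 bases, and at least 4 by 12 genes. Of the genes with 4, *Lin28b* differed between layers by 4.59-fold and *Igf2bp1* by 1.25-fold. The level of let-7 itself was not measured here.

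Of 13 genes of let-7 processing and action, 1 met the criteria. This was *Hmga2*, a chromatin protein and let-7 target, at RPKM 47.7 in End, 261.8 in Mes and 57.0 in Epi, higher in Mes than in either other layer. The enzymes and cofactors of the pathway varied less, with *Dicer1* at 15.01, 26.9 and 22.9, *Drosha* at 60.6, 74.7 and 78.7 and the uridylyltransferase *Zcchc11* at 20.4, 26.0 and 18.1. Among 24 other tissue-restricted RNA-binding proteins 4 met the criteria, a share near that of all genes. *Rbm47*, a cofactor of RNA editing, was at 22.2 in End, 0.392 in Mes and 1.03 in Epi, and *Rbm24*, a muscle splicing regulator, at 2.62, 23.2 and 3.54. *Rbm38* was at 38.9, 15.5 and 25.3, and *Dnd1*, a germ cell factor, at 1.98, 3.89 and 6.74. Thus *Rbm47* was high in End alone as were *Esrp2* and *Bicc1*, and *Rbm24* met the criteria in Mes over both other layers as did *Rbms1*.

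**Figure D3:**
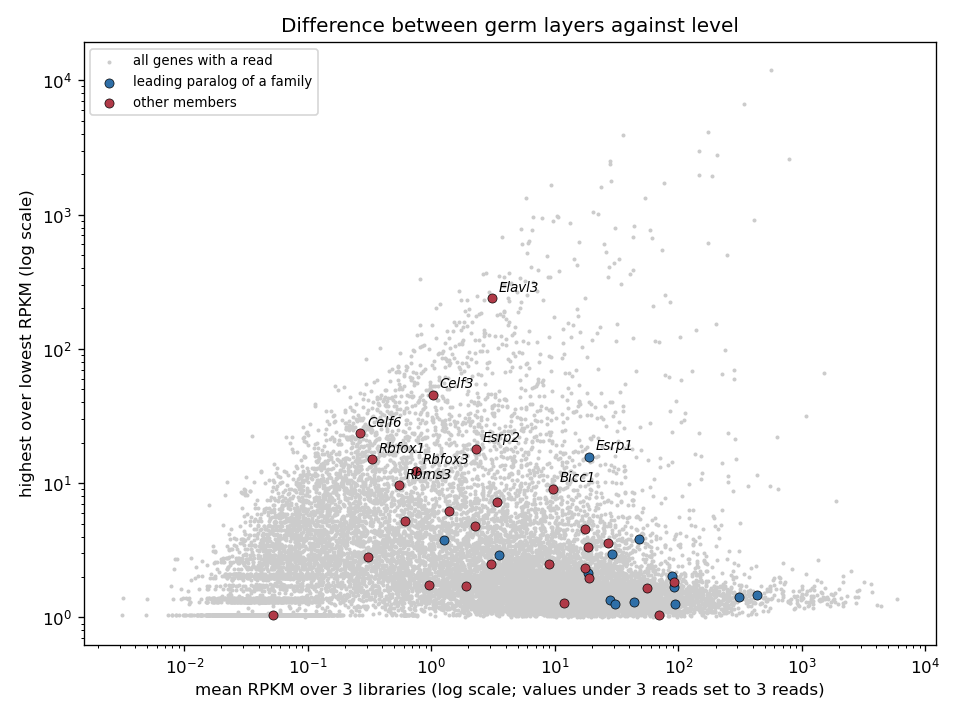
Highest over lowest RPKM among the 3 libraries against mean RPKM, both on log scales, for all genes with a read (grey) and for the leading and other paralogs of each family, with values under 3 reads set to 3. Leading paralogs have a median of 1.85 and the others 3.46, and the points above 8 include *Elavl3*, *Celf3* and *Esrp1*.

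Across families, the same paralog led in all 3 layers in 12 of 14, the exceptions being Rbpms and Igf2bp. With GENCODE transcript lengths in place of those of the tables it was 10 of 14, since Msi and Rbms also changed leader. Second place changed between layers in 5 of the 8 families with at least 3 paralogs (Celf, Mbnl, Elavl, Ptbp and Igf2bp), and in 6 with GENCODE lengths. With counts under 3 set to 3 reads, the 14 leading paralogs had a median gap between highest and lowest library of 1.85-fold (1.25 to 15.7), and 7 of the 14 exceeded 2-fold. The 26 other paralogs had a median of 3.46-fold (1.05 to 238), and 18 exceeded 2-fold. In 8 of the 14 families the leader had the narrowest gap. Leading paralogs have higher RPKM by construction, and the part of level in this difference was not tested.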

How the data were processed

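RNA of the endoderm, mesoderm and epiblast (1 library per layer) was sequenced by the authors (paired ends, Illumina HiSeq). The authors deposited the count of uniquely mapped reads per gene, without normalization, the RPKM of each gene and its coverage in percent of the gene length. Reads counted on genes totalled 41654074, 40849823 and 42705496, and recomputing RPKM from counts, gene lengths and these totals gave the deposited values to within a relative difference of 2.03e-07. The submitters' processing notes name TopHat with builds mm9 and mm10. The aligner, annotation and counting program of the gene tables are not given in the sources used here.

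RPKM was used as deposited. Genes missing from a table were set to 0 reads, which allows up to 3. The study's criteria were applied to each pair of libraries, with the exact test of Audic and Claverie and Benjamini-Hochberg adjustment over 17194, 17267 and 17100 genes. The quasi-likelihood test of edgeR could not be fitted to 1 library per layer, so its exact test was run at assumed coefficients of variation as an alternative. Other alternatives changed the minimum RPKM, the fold, the scaling, the adjustment and the pseudocount, and ranked paralogs by reads or, chosen after seeing the data, by reads per GENCODE transcript length. The test was checked on simulated data. Named genes were the 41 members and the genes of 10 lists. The members and lists were chosen with earlier results of these data known. Positions came from GENCODE M21 (GRCm38), to which all 41 genes were matched, promoters and miRNAs from RefSeq (GRCm38.p6). Software was R 4.3.3 with edgeR 4.0.16, and Python 3.11.15 with SciPy 1.17.1, numpy 2.4.6, pandas 2.3.3 and matplotlib 3.10.9.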

Additional observations from a re-analysis of the deposited data

How the results depend on the processing

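No paired analysis was possible because each layer has 1 library and the labels carry no replicate numbers, and for the same reason no library could be left out. Between endoderm and mesoderm 8 genes met the criteria, against 18 with no minimum RPKM, 14 with a fold above 1.5, 3 with a fold above 4 and 2 with edgeR at 0.4. Between endoderm and epiblast 11 did, against 22 with no minimum, 18 with RPKM>1, 7 with RPKM>10, 5 with a fold above 4, 6 with edgeR at 0.2 and 1 at 0.4. Between mesoderm and epiblast 4 did, against 10 with no minimum, 7 with RPKM>1, 9 with a fold above 1.5, 2 with a fold above 4 and 1 with edgeR at 0.4. In at least 1 pair 15 did, against 26 with no minimum, 6 with a fold above 4, 9 with edgeR at 0.2 and 3 at 0.4. Fewer or more genes can pass these limits by construction. RPKM>1 gave 22, adding *Celf3*, *Celf5*, *Elavl2*, *Mbnl1*, *Nova1*, *Nova2* and *Rbfox3*, and RPKM>10 gave 11, without *Celf4*, *Elavl3*, *Esrp2* and *Mbnl2*. At 0.2 edgeR left out *Mbnl2*, *Msi1*, *Raver2*, *Rbfox2*, *Rbpms2* and *Rod1*. Ranked by reads in place of RPKM, 4 families in place of 2 changed their leading paralog (Mbnl, Nova, Rbms and Rbpms), and with GENCODE transcript lengths, an alternative chosen after seeing the data, 4 did (Msi, Rbms, Rbpms and Igf2bp). Of the 123 log2 ratios, a pseudocount of 1 moved 34 that had not met the criteria beyond their counting interval and one of 0.1 moved 10. Some ratios that met the criteria also left their interval with a pseudocount of 1. *Esrp2* went from 4.17 to 2.40 for endoderm over mesoderm, and *Celf4* from -2.87 to -1.94 for endoderm over epiblast. No sign changed and no call was lost with either pseudocount. The median log2 ratio of all genes for endoderm over mesoderm shifted by 0.11 under TMM, and that for endoderm over epiblast by -0.13 under the upper quartile. Some scaling changed the sign of a ratio for 7 genes (*Elavl1*, *Raver1*, *Msi2*, *Rbms2*, *Rbpms*, *Igf2bp1* and *Igf2bp3*), and the highest layer for 5. The endoderm stayed lowest for 25 to 28 of the 41 genes. Between-embryo variation was not measured, and low counts limit *Khdrbs2*, *Celf6* and *Elavl4*.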
